A study of Mus musculus with 9 samples.

Results

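Semaphorins, ephrins, Slits, netrins and their receptors were followed in mouse hepatic stellate cells that had been given vesicles of pancreatic cells. The genes were taken by symbol from the deposited table, and 35 of its 11051 genes matched: 10 semaphorins, 6 plexins, 2 neuropilins, 5 Eph receptors, 7 ephrins, 2 Slits, 1 netrin (Ntn4) and 2 genes whose names start with Unc5. Of these last genes Unc5b is a netrin receptor. Unc50, a membrane protein of the secretory pathway, entered by its name alone and is no guidance receptor. Robo receptors of Slits, Plxnc1 and the other netrins had no row in the table under these symbols, so they could not be followed.

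Hepatic stellate cells are the pericytes of the liver, which store vitamin A and turn into matrix-forming myofibroblasts in injury. Those used here were primary cells of C57BL/6 mice, kept in medium with exosome-depleted serum before exosomes were added. For the control group the exosomes came from primary duct epithelial cells of mouse pancreas. For the KPC and Panc02 groups they came from the mouse pancreatic adenocarcinoma lines of those names. Each group held 3 libraries. Every group was given exosomes, so each comparison sets tumour cell exosomes against duct cell exosomes, and each tumour group stands for a single cell line. Nothing in the labels ties the libraries to separate cultures or mice, and a p-value therefore measures only the spread between these libraries, which may be technical.

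Guidance cues are secreted or membrane-bound ligands that steer growing axons, vessels and migrating cells. Semaphorins bind plexins, which switch off small GTPases of the Ras family, and the secreted semaphorins use neuropilins as co-receptors. A-type ephrins are anchored to the membrane by a lipid and B-type ephrins span it, and on cell contact they and the Eph receptor kinases signal into both cells. Slits repel cells through Robo receptors with heparan sulfate as a co-factor, and netrins attract through Dcc or repel through Unc5 receptors.

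Values are FPKM, fragment counts scaled by the authors to transcript length and library size, so levels can be compared between genes. How many reads lie behind a value is unknown. The values summed to between 257119 and 307280 FPKM per library. Mitochondrially encoded genes took 26.4% to 33.6% of FPKM in the replicate 1 library of each group and 11.2% to 15.9% in replicates 2 and 3, so the replicate 1 libraries stand apart. Of 10 stellate cell and myofibroblast markers 6 were in the table (Acta2, Col1a1, Col3a1, Lox, Pdgfrb and Timp1). Their summed level was 707 to 866 FPKM in the control libraries, 908 to 1339 with KPC and 1144 to 1386 with Panc02 exosomes. Acta2 and Lox are the largest terms of that sum. Acta2 and Col1a1 were above the control range in all tumour exosome libraries. Lox and Col3a1 were so in all Panc02 libraries but overlapped for KPC, and Pdgfrb and Timp1 overlapped with control for both sources. Des, Lrat, Reln and Ngfr, which mark quiescent stellate cells among others, were not in the table. Of 8 liver endothelial markers only Cdh5 was in the table, at 0.984 to 1.27, 1.26 to 1.33 and 1.33 to 1.50 FPKM in the same order of groups. The 3 macrophage markers in the table, of 7 listed, summed to 4.02 to 6.10, 4.09 to 5.18 and 3.74 to 5.02 FPKM. Of 5 duct epithelial markers Sox9, which stellate cells also express, stood at 19.3 to 23.3 FPKM over all libraries. Krt19 and Epcam reached at most 0.451 FPKM in the control group, 0.819 with KPC and 3.89 with Panc02 exosomes, the last value in Panc02 replicate 1 for both genes. Both were listed at 0 in 2 control libraries and in Panc02 replicate 2. None of 6 hepatocyte markers and none of 6 neuron and glia markers was in the table. In such bulk libraries fewer cells of a type and less RNA per cell cannot be told apart.

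**Figure D1:**
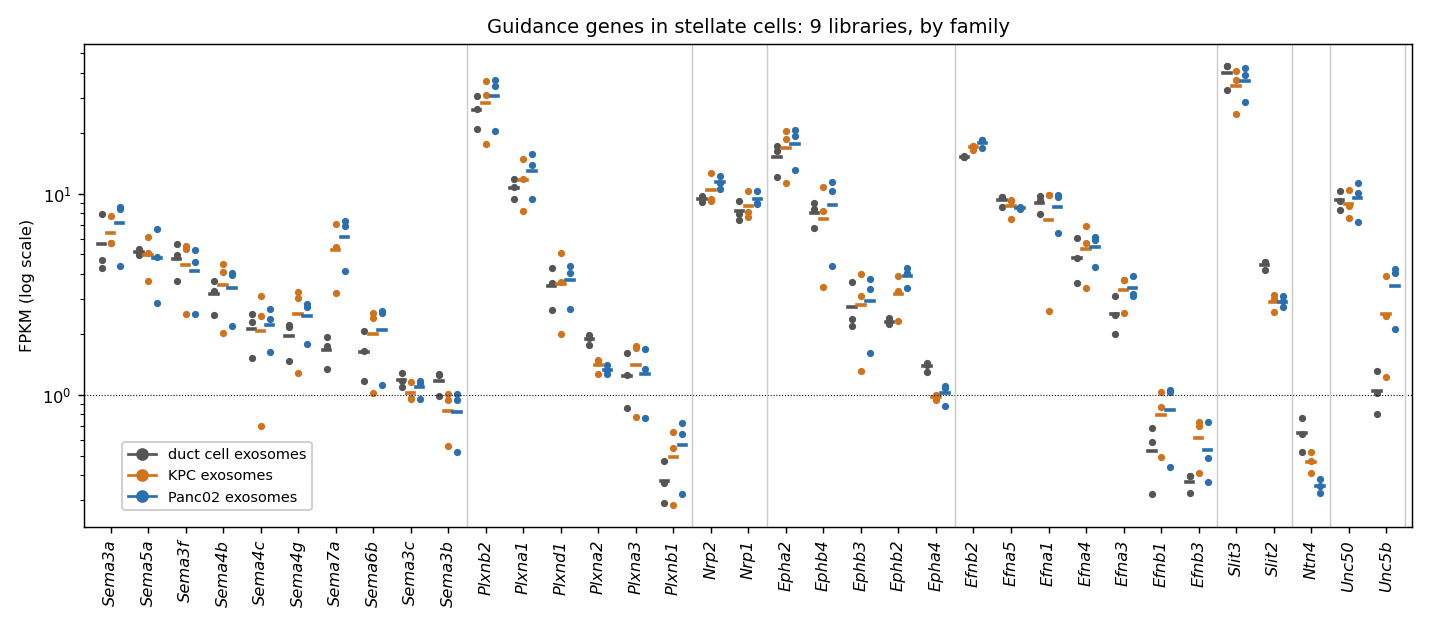
FPKM (log axis) of the 35 genes in each of the 9 libraries, with short bars for group means, ordered by family and by the control mean. The dotted line is at 1 FPKM. Slit3 and Plxnb2 are the most abundant genes, and the Sema7a points of both tumour exosome groups lie above its control points.

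Slit3, a secreted repellent, was the most abundant guidance gene of the control cells, at 32.7, 43.2 and 43.3 FPKM. Its relative Slit2 stood at 4.44 ± 0.240 FPKM (SD, n = 3). Among plexins Plxnb2, a receptor of class IV semaphorins, led with 21.0, 26.4 and 30.8 FPKM, followed by Plxna1 at 10.7 ± 1.18 FPKM. Plxnd1 was at 3.50 ± 0.820, Plxna2 at 1.89 ± 0.110, Plxna3 at 1.24 ± 0.376 and Plxnb1 at 0.375 ± 0.0911 FPKM. The semaphorins were low by comparison: the highest control means were those of the secreted Sema3a (5.65 ± 2.03 FPKM) and Sema3f (4.77 ± 0.985) and the transmembrane Sema5a (5.13 ± 0.182), which do not differ beyond their spread, and the lowest was that of Sema3b at 1.17 ± 0.155 FPKM. Nrp1 and Nrp2, the co-receptors of secreted semaphorins and of Vegfa, lay close together at 8.19 ± 0.937 and 9.48 ± 0.330 FPKM. Epha2, at 12.1, 17.4 and 16.3 FPKM, was the highest Eph receptor, ahead of Ephb4 at 8.07 ± 1.17, and Epha4 was the lowest at 1.39 ± 0.0799 FPKM. Efnb2, a transmembrane ligand of EphB receptors known for its part in vessel and mural cell assembly, led the ephrins at 15.3, 15.5 and 15.2 FPKM. Next came Efna5 (9.31 ± 0.602 FPKM) and Efna1 (9.03 ± 0.969), which overlap, while Efnb1 and Efnb3 lay below 1 FPKM in every control library.

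The comparison of tumour cell with duct cell exosomes asks which guidance genes the source of the exosomes altered. Sema7a was higher with exosomes of both tumour lines in a fit that pairs libraries by replicate number. In that fit Unc5b and Ephb2 were higher and Slit2 was lower with Panc02 exosomes. None of these 3 passed with KPC exosomes, though the log2 fold change of Slit2 was -0.48 for each source. No guidance gene passed limma at an adjusted p under 0.05 over all 10368 genes tested when the 3 groups were compared without regard to replicate number. Of the 35 genes 32 were tested, and Ntn4, Efnb3 and Plxnb1 were too low. In that fit 0.328% of all genes passed for KPC and 1.01% for Panc02 exosomes, and at an unadjusted p under 0.05 there were 5 guidance genes for KPC against 6.54% of all genes and 7 for Panc02 against 9.60%. Libraries of the same number deviated from their group means together and were taken as paired. Libraries numbered 2 and 3 also correlated with each other, at up to 0.613, so the pairing is clear only for number 1. For numbers 2 and 3 it is assumed. The labels do not explain the numbers. With the replicate number as a block 1 guidance gene passed for KPC, where 1.68% of all genes did, and 4 passed for Panc02, where 4.24% did. With KPC exosomes this was Sema7a, and with Panc02 exosomes these were Sema7a, Unc5b, Ephb2 and Slit2. The same genes passed without the 3 replicate 1 libraries, against 1.72% of all genes for KPC and 4.60% for Panc02. The 2 comparisons share the control libraries and are not independent of each other.

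The KPC and control libraries did not overlap in 5 of the 32 tested genes, against 11.4% of all tested genes. These were Sema7a and Efnb2 (higher) and Slit2, Plxna2 and Epha4 (lower). For Panc02 exosomes this held for 10 genes, against 16.1%, the same 5 genes and Unc5b, Ephb2, Nrp2 and Efna3 (higher) and Efna5 (lower). The median log2 fold change of the 32 genes was 0.08 for KPC exosomes, against -0.01 over all tested genes, and 0.06 for Panc02 exosomes, against 0.00. Of the 32 genes 27 lay within 0.3 log2 of no change for KPC and 26 for Panc02 exosomes, as did 90.3% and 87.2% of all tested genes.

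**Figure D2:**
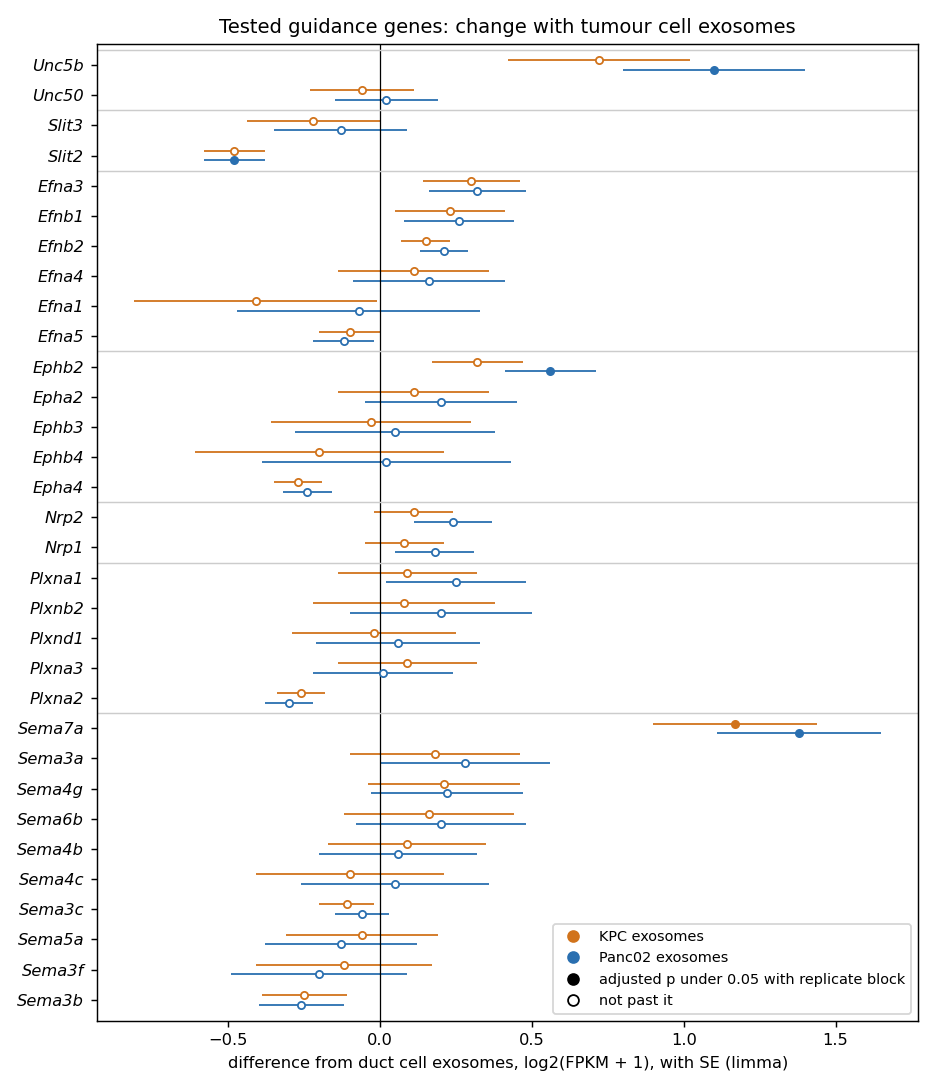
Difference from the duct cell exosome group on the log2(FPKM + 1) scale, with its SE from limma, for the 32 tested genes by family, orange for KPC and blue for Panc02 exosomes. Filled points passed at an adjusted p under 0.05 with the replicate block: Sema7a for both sources, and Unc5b, Ephb2 and Slit2 for Panc02.

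Sema7a, a lipid-anchored semaphorin that signals through Itgb1-containing integrins and Plxnc1 and is known from mouse models of fibrosis in lung and liver, lies at 57940112 to 57962865 on the plus strand of chromosome 9 (GRCm38, ENSMUSG00000038264.8). Its control libraries stood at 1.35, 1.76 and 1.94 FPKM. The KPC libraries stood at 3.20, 5.44 and 7.08 FPKM and the Panc02 libraries at 4.12, 7.31 and 6.94 FPKM. Every tumour exosome library was above every control library, and within each group replicate 1 was the lowest. The group means were 1.68 ± 0.301, 5.24 ± 1.95 and 6.12 ± 1.74 FPKM (SD, n = 3), which is 3.12 times the control mean for KPC and 3.65 times for Panc02 exosomes. For KPC exosomes the log2 fold change was 1.17 (SE 0.27, limma adjusted p = 0.204, and 0.00967 with the replicate block). For Panc02 exosomes it was 1.38 (SE 0.27, limma adjusted p = 0.0587, and 0.00240 with the block). With each library left out in turn the Panc02 adjusted p in the unpaired limma fit was 0.0224 to 0.230, and it passed only without KPC replicate 1, which is not in that contrast but adds to the spread. Between libraries of the same number the difference was 0.84, 1.22 and 1.46 log2 for KPC and 1.13, 1.59 and 1.44 for Panc02. The duct epithelial markers Krt19 and Epcam were highest in Panc02 replicate 1, as given above, and their part in the Sema7a values was not tested. Itgb1, the integrin chain of the Sema7a receptor, was abundant in every group, with means of 245, 268 and 287 FPKM.

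The remaining semaphorins did not separate by group. Sema3a, a secreted repellent, was at 7.98, 4.69 and 4.28 FPKM in control, 5.67, 7.79 and 5.70 in KPC and 8.61, 8.38 and 4.40 in Panc02 libraries. Its groups overlapped fully (log2 0.18 and 0.28, limma adjusted p = 1.000 and 0.992). Sema5a, a transmembrane semaphorin with thrombospondin repeats, stood at 4.97, 5.33 and 5.09 FPKM in control, 6.14, 3.69 and 5.06 in KPC and 6.73, 2.86 and 4.85 in Panc02 libraries. Replicate 1 was the highest and replicate 2 the lowest in both tumour exosome groups (log2 -0.06 and -0.13, limma adjusted p = 1.000 for both). Sema3f, a secreted ligand that binds Nrp2, stood at 3.69, 4.98 and 5.63 FPKM in control, 2.54, 5.31 and 5.51 in KPC and 2.52, 5.24 and 4.58 in Panc02 libraries, with replicate 1 lowest in each group. The other 6 semaphorins (Sema3b, Sema3c, Sema4b, Sema4c, Sema4g and Sema6b) had log2 fold changes of -0.26 to 0.22 over both sources, none past the threshold in either fit.

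Unc5b, a netrin receptor that is also known in endothelial cells (chromosome 10, 60762593 to 60831581, minus strand, ENSMUSG00000020099.8), stood near 1 FPKM with duct cell exosomes, at 0.807, 1.02 and 1.31 FPKM. It was at 1.23, 2.46 and 3.91 FPKM with KPC and at 2.14, 4.21 and 4.06 FPKM with Panc02 exosomes. All Panc02 libraries were above the control libraries, and KPC replicate 1 fell inside the control range. The means were 1.04 ± 0.253, 2.53 ± 1.34 and 3.47 ± 1.16 FPKM (SD, n = 3). The log2 fold change for Panc02 exosomes was 1.10 (SE 0.30, limma adjusted p = 0.187, and 0.0111 with the replicate block), with the Panc02 mean 3.32 times the control mean. For KPC exosomes it was 0.72 (SE 0.30, limma adjusted p = 0.699, and 0.0786 with the block). All 3 same-number differences were above 0 for each source, at 0.30, 0.78 and 1.09 log2 for KPC and 0.80, 1.37 and 1.13 for Panc02. The endothelial marker Cdh5 was also highest in the Panc02 group, at 1.33 to 1.50 FPKM as given above, and its part in the Unc5b values was not tested. Ntn4, the netrin in the table and a basement membrane protein, stood at 0.770, 0.641 and 0.523 FPKM in control, 0.521, 0.472 and 0.407 in KPC and 0.326, 0.382 and 0.354 in Panc02 libraries. Each KPC and Panc02 value was below each control value, but all lie under the filter of 1 FPKM. In a fit without that filter Ntn4 had a log2 fold change of -0.28 for Panc02 exosomes (SE 0.08, limma adjusted p = 0.230).

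**Figure D3:**
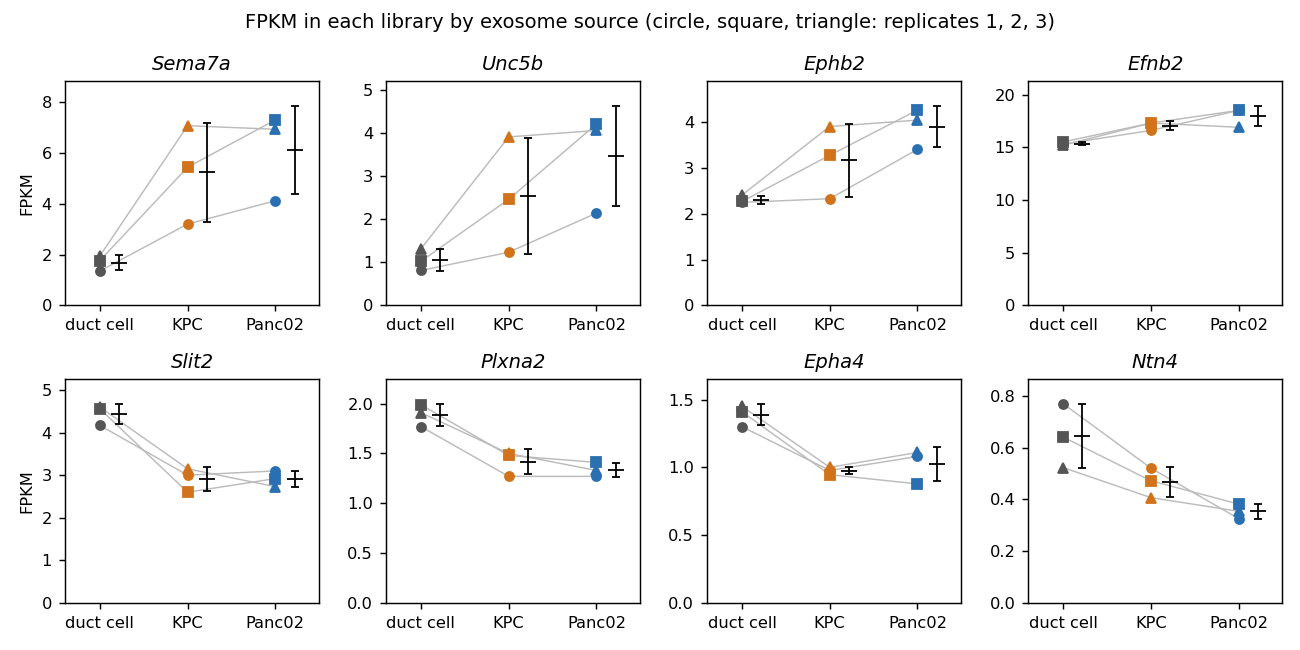
FPKM in every library for 8 guidance genes by exosome source, with symbols for the replicate number, grey lines joining the same number, and the mean ± SD of each group beside the points. All Panc02 points of Sema7a, Unc5b, Ephb2 and Efnb2 lie above the duct cell points, and all those of Slit2, Plxna2, Epha4 and Ntn4 lie below them. Only genes whose Panc02 and duct cell libraries did not overlap are shown, as held for 16.1% of all tested genes. Ntn4 was too low to be tested.

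Slit2, a secreted repellent of axons, leukocytes and endothelial cells, lies at 47983138 to 48307733 on the plus strand of chromosome 5 (ENSMUSG00000031558.15). It stood at 4.17, 4.56 and 4.60 FPKM with duct cell, 3.00, 2.60 and 3.15 FPKM with KPC and 3.10, 2.92 and 2.73 FPKM with Panc02 exosomes. The control libraries were clear of both tumour exosome groups, and replicate 1 was not the lowest library of either tumour exosome group. The means were 4.44 ± 0.240, 2.91 ± 0.283 and 2.92 ± 0.184 FPKM (SD, n = 3), with both tumour groups at 0.656 of the control mean. The log2 fold change was -0.48 for each source (SE 0.10), with limma adjusted p = 0.137 for KPC and 0.0663 for Panc02 exosomes. With the replicate block the adjusted p of limma was 0.0560 and 0.0328. The unadjusted p of that fit was 0.00102 for KPC and 0.00105 for Panc02, so the sources differ here only through the adjustment. Slit3 stood at 25.0, 37.0 and 40.9 FPKM with KPC and 28.5, 42.1 and 38.9 FPKM with Panc02 exosomes, which overlaps the control range of 32.7 to 43.3 FPKM (log2 -0.22 and -0.13, limma adjusted p = 1.000 for both, and 0.257 and 0.433 with the block). Between libraries of the same number Slit3 was lower in all 3 pairs for each source, with differences of -0.37, -0.22 and -0.08 log2 for KPC and -0.19, -0.04 and -0.15 for Panc02 exosomes.

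Ephb2, a receptor kinase for B-type ephrins (chromosome 4, 136647539 to 136835988, minus strand, ENSMUSG00000028664.14), had control libraries at 2.25, 2.27 and 2.41 FPKM. It was at 2.33, 3.28 and 3.91 FPKM with KPC and 3.41, 4.27 and 4.05 FPKM with Panc02 exosomes. The Panc02 libraries were all above the control libraries, and KPC replicate 1 lay within the control range. The means were 2.31 ± 0.0840, 3.17 ± 0.793 and 3.91 ± 0.450 FPKM (SD, n = 3). The log2 fold change was 0.56 for Panc02 (SE 0.15, limma adjusted p = 0.176, and 0.0332 with the replicate block) and 0.32 for KPC exosomes (SE 0.15, limma adjusted p = 0.829, and 0.255 with the block). Its ligand Efnb2 stood at 16.6, 17.3 and 17.3 FPKM with KPC and 18.5, 18.5 and 16.9 FPKM with Panc02 exosomes. All of these were above the control range of 15.2 to 15.5 FPKM, with log2 fold changes of 0.15 and 0.21 (limma adjusted p = 0.955 and 0.384, and 0.390 and 0.134 with the block).

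The most abundant Eph receptors overlapped between groups, and replicate 1 was the lowest library of each group. Epha2, a receptor of A-type ephrins, was at 11.3, 18.7 and 20.5 FPKM with KPC and 13.1, 20.8 and 19.5 FPKM with Panc02 exosomes (log2 0.11 and 0.20, limma adjusted p = 1.000 for both). Ephb4, the receptor of Efnb2 in veins, was at 3.43, 8.22 and 10.8 and at 4.40, 11.5 and 10.4 FPKM in the same groups, and its replicate 1 libraries were the lowest of the 9. Ephb3 stood at 2.74 ± 0.781, 2.80 ± 1.37 and 2.93 ± 1.15 FPKM. Efna1, a ligand of Epha2, was at 2.61 FPKM in KPC replicate 1, against 9.85 and 9.84 FPKM in KPC replicates 2 and 3 and 7.94 to 9.80 FPKM in the control group. Its log2 fold change of -0.41 for KPC exosomes (SE 0.40, limma adjusted p = 1.000) rests on that library: the same-number differences were -1.31, 0.07 and 0.01, and without KPC replicate 1 the fold change was 0.12. Without that library the KPC fold change of Ephb4 was 0.21, against -0.20 with it. Efna5, a ligand of EphA receptors, stood at 8.61, 9.68 and 9.64 FPKM in control, 7.48, 9.18 and 9.35 in KPC and 8.43, 8.58 and 8.48 in Panc02 libraries. The Panc02 libraries were just below the control range (log2 -0.12, limma adjusted p = 0.963). The other tested ephrins (Efna3, Efna4 and Efnb1) had log2 fold changes of 0.11 to 0.32, none past the threshold in either fit. Exons of Ephb4, Efna3, Efna4, Sema4c, Plxna1 and Plxnb1 overlap annotated genes on the other strand, and whether reads were counted by strand is not given in the sources used here, so these levels are uncertain.

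Plxna2 and Epha4 were chosen for description after their values were seen. Plxna2, a receptor of secreted and transmembrane semaphorins, stood at 1.77, 1.99 and 1.91 FPKM in control, 1.27, 1.48 and 1.50 in KPC and 1.27, 1.41 and 1.33 in Panc02 libraries. Its control libraries were above all KPC and Panc02 libraries (log2 -0.26 and -0.30, limma adjusted p = 0.452 and 0.200, and 0.173 and 0.0728 with the block). Epha4, a receptor of both ephrin types, stood at 1.30, 1.41 and 1.45, at 0.977, 0.946 and 1.00, and at 1.08, 0.878 and 1.11 FPKM in the same order. Its control libraries were above all others (log2 -0.27 and -0.24, limma adjusted p = 0.412 and 0.343, and 0.184 and 0.160 with the block). Neither gene passed in either fit.

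Plexins other than Plxna2 and the neuropilins showed small differences. Plxnb2 stood at 17.7, 31.0 and 36.5 FPKM with KPC and 20.5, 37.0 and 34.5 FPKM with Panc02 exosomes, and replicate 1 was the lowest library of each group. Plxna1, a partner of neuropilins, was at 9.42, 10.8 and 11.8 FPKM in control, 8.20, 11.9 and 14.9 in KPC and 9.41, 15.8 and 14.0 in Panc02 libraries. Plxnd1, the receptor of Sema3e in vessels, was at 2.64, 3.59 and 4.27, at 2.01, 3.64 and 5.08, and at 2.69, 4.40 and 4.06 FPKM in the same order. Over Plxnb2, Plxna1, Plxnd1 and Plxna3 the log2 fold changes ran from -0.02 to 0.25, with limma adjusted p from 0.987 to 1.000. Nrp2 was at 9.44, 9.24 and 12.7 FPKM with KPC and 11.3, 12.3 and 10.6 FPKM with Panc02 exosomes. The Panc02 libraries were above the control range of 9.12 to 9.75 FPKM (log2 0.24, limma adjusted p = 0.675). Nrp1 stood at 7.43, 9.24 and 7.92 FPKM in control, 7.64, 8.15 and 10.4 in KPC and 9.05, 10.3 and 8.86 in Panc02 libraries, and its groups overlapped. Unc50, matched by name alone, stood at 8.33, 9.24 and 10.3, at 7.59, 8.69 and 10.5, and at 7.23, 10.1 and 11.3 FPKM, with no separation. The low genes Plxnb1 and Efnb3 were at 0.283 to 0.737 FPKM in every library.

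Many guidance genes were low in the replicate 1 library of each group. Replicate 1 was the lowest library in all 3 groups for 23 of the 32 tested genes (71.9%), against 43.6% of all tested genes, and the highest in all 3 groups for 0, against 15.1%. The median difference between replicate 1 and the mean of replicates 2 and 3 was -0.25 log2 in the control, -0.62 in the KPC and -0.46 in the Panc02 group for the 32 genes, and -0.12, -0.21 and -0.15 over all tested genes. Slit2, Efnb2, Plxna2, Epha4 and Nrp2 had differences of -0.09 to 0.01 log2 averaged over the groups, while those of Ephb4, Efna1 and Plxnb2 were -0.90, -0.79 and -0.70. Sema5a and Sema3a went the other way, at 0.36 and 0.31 log2. The 3 genes higher with Panc02 exosomes in the blocked fit belong to those low in replicate 1, with -0.57 for Sema7a, -0.62 for Unc5b and -0.24 for Ephb2. The difference of replicate 1 from replicates 2 and 3 was lower in the KPC than in the control group for 28 of 32 genes. Over all tested genes this held for 61.7%. KPC replicate 1 had the largest mitochondrial share (33.6%). The part of RNA quality or depth in this pattern was not tested.

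**Figure D4:**
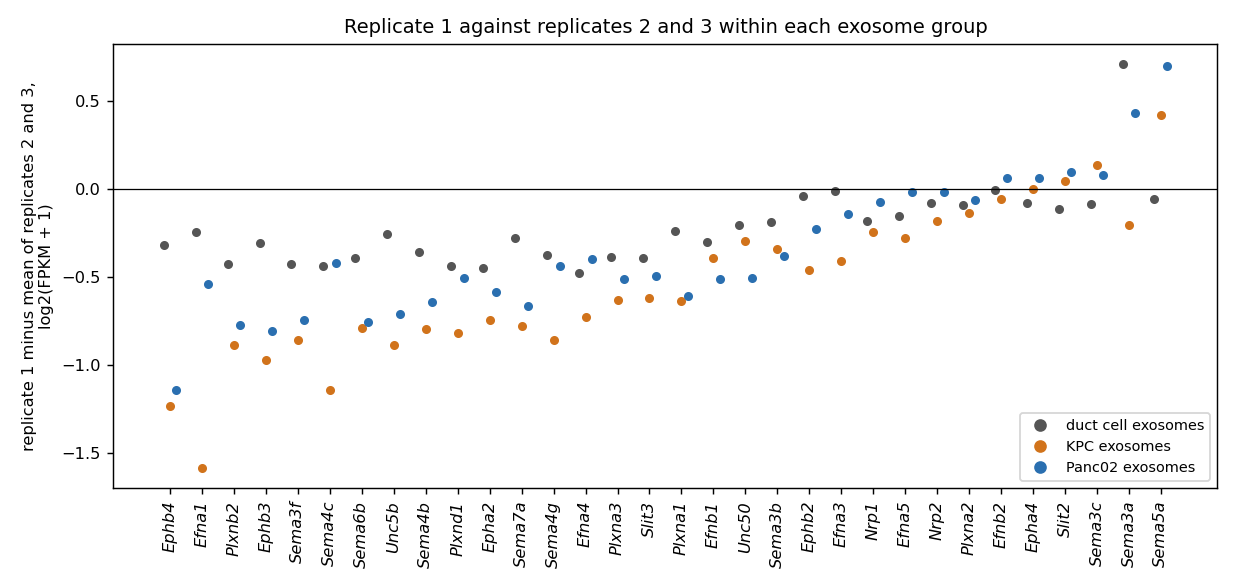
Difference between replicate 1 and the mean of replicates 2 and 3 on the log2(FPKM + 1) scale for the 32 tested genes, 1 point for each exosome group, ordered by the mean. Most points lie below 0, and Ephb4, Efna1 and Plxnb2 have the lowest means, while Slit2, Efnb2 and Epha4 lie close to 0.

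Panc02 and KPC exosomes were also compared directly. No guidance gene passed in limma or with the replicate block (0% of all tested genes in both), and 0 had an unadjusted p under 0.05, against 0.829% of all genes. With the block 1 guidance gene of 32, Unc5b, had an unadjusted p under 0.05, against 2.51% of all tested genes. None of the 32 had groups that do not overlap, against 2.62% of all tested genes. Unc5b differed by 0.38 log2 (SE 0.30), Ephb2 by 0.25 (SE 0.15), Sema7a by 0.21 (SE 0.27) and Slit2 by 0.00 (SE 0.10), each with limma adjusted p = 1.000, and 0.999 with the block. Differences of these sizes were not detectable here, which does not show that the sources act alike.

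Promoter sequence is shown for the 4 genes that passed in the blocked fit. It played no part in those calls. The lines give the 250 bases before the RefSeq start of each gene (GRCm38.p6), 5′ to 3′ on the gene's strand. Capitals mark matches, on either strand, to a Smad box (CAGAC), a TEAD site (GGAATG), an AP-1 site (TGANTCA), a GC box (GGGCGG) or a TATA box (TATAAA). The windows are chr9:57939862-57940111 on the plus strand for Sema7a, chr10:60831582-60831831 on the minus strand for Unc5b, chr4:136836013-136836262 on the minus strand for Ephb2 and chr5:47982905-47983154 on the plus strand for Slit2.
Sema7a: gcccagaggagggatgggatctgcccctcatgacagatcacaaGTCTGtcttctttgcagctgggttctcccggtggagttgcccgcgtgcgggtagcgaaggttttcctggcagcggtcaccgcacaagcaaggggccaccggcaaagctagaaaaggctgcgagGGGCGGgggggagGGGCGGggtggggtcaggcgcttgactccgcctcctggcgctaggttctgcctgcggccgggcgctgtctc
Unc5b: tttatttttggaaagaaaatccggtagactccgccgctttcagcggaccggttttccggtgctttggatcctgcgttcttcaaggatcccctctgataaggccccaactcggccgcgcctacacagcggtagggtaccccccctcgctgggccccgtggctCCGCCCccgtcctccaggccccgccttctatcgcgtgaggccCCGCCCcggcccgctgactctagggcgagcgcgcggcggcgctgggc
Ephb2: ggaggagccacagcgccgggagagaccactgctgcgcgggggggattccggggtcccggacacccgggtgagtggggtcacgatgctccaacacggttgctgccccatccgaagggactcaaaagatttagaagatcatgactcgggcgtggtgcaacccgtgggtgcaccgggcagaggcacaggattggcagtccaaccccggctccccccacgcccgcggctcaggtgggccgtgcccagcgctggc
Slit2: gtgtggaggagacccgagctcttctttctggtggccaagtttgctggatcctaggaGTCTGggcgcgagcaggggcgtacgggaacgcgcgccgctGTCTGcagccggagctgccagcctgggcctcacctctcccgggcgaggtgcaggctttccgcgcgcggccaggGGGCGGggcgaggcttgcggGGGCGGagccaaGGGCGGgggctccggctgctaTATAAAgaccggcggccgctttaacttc

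All 4 windows were rich in G and C, at 66.4% for Sema7a, 66.8% for Unc5b, 68.4% for Ephb2 and 69.6% for Slit2. Slit2, the gene that was lower, held a TATA box that starts 28 bases before the start site, 3 GC boxes and 2 Smad boxes. Sema7a held 1 Smad box, 207 bases before the start, and 2 GC boxes. Unc5b held 2 GC boxes, and the Ephb2 window had no match to the 5 motifs. None of the 4 windows held the TEAD or AP-1 letters. The RefSeq table holds 32851 windows of 300 bases, each cut here to the 250 bases before the start. Of these 42.2% held a Smad box, 12.6% a TEAD site, 6.7% an AP-1 site, 32.7% a GC box and 12.4% a TATA box. Of the 35 genes 31 had at least 1 window there, 37 windows in all, of which 33 held a GC box, 18 a Smad box and 2 a TATA box. These are letter matches and not measured sites.

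Partners and effectors of the guidance receptors were taken from a list of 99 genes, chosen with earlier results of these data known. Of its 73 tested genes Vegfa passed as higher for each source and none passed as lower (limma), where 0.328% of all tested genes passed for KPC and 1.01% for Panc02 exosomes. The median log2 fold change of the 73 genes was 0.02 for KPC and 0.05 for Panc02 exosomes. Vegfa, the vascular growth factor that binds Nrp1, stood at 17.0, 16.3 and 16.6 FPKM with duct cell, 26.5, 25.5 and 31.5 with KPC and 34.5, 33.4 and 31.6 FPKM with Panc02 exosomes (limma adjusted p = 0.0291 and 0.00431). With the replicate block 1 gene was higher and 1 lower for KPC, and 3 were higher and 2 lower for Panc02 exosomes, where 1.68% and 4.24% of all tested genes passed. Ngef (ephexin, an exchange factor that acts downstream of Epha4) was the lower gene for both sources, at 3.17, 4.73 and 4.22 FPKM in control, 1.14, 2.60 and 2.34 in KPC and 0.910, 2.33 and 2.08 in Panc02 libraries. Its control libraries were above all others, and its adjusted p with the block was 0.0155 and 0.00411, against 0.542 and 0.235 without it (limma). Flrt2, a membrane ligand of Unc5 receptors, was at 18.2, 20.9 and 19.1 FPKM in control, 24.7, 24.9 and 30.9 in KPC and 31.6, 32.1 and 26.8 in Panc02 libraries. All its KPC and Panc02 values were above the control range. For Panc02 exosomes its log2 fold change was 0.61 (limma adjusted p = 0.0663, and 0.0309 with the block). For KPC exosomes it was 0.44 (limma adjusted p = 0.310, and 0.138 with the block). Ext1, an enzyme that builds the heparan sulfate used by Slits, was at 0.48 log2 with Panc02 exosomes (limma adjusted p = 0.209, and 0.0180 with the block). With KPC exosomes Ext1 was at 0.30 log2 (limma adjusted p = 0.789, and 0.130 with the block). Vegfd was at -0.41 log2 with Panc02 exosomes (limma adjusted p = 0.284, and 0.0282 with the block). With KPC exosomes Vegfd was at -0.36 log2 (limma adjusted p = 0.611, and 0.0749 with the block). Of 30 tested plexin and semaphorin effectors none passed in either fit for either source.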

How the data were processed

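TruSeq libraries were made from Trizol-extracted total RNA, per the labels' protocols. Reads were trimmed with cutadapt, aligned to GRCm38 with HISAT2 2.0.4 and quantified with StringTie 1.2.3, per the submitters' processing notes. The deposited values of 11051 genes are FPKM, scaled by the authors to transcript length and library size. Read depth and strand handling are not stated in these sources.

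Guidance genes were chosen by symbol (Sema, Plxn, Nrp, Eph, Efn, Robo, Slit, Ntn and Unc5 families). They and the partner and marker lists were chosen with earlier results of these data known. FPKM were taken to log2(FPKM + 1), a scale that understates the change of low genes. Testing required 1 FPKM or more in 3 or more libraries, which kept 10368 genes and set aside 683. A mean per group was estimated in limma 3.58.1 (R 4.3.3) with mean-dependent prior variance, 6 residual and 2.38 prior degrees of freedom. Tests were two-sided, with Benjamini-Hochberg adjustment over all tested genes and a threshold of 0.05. The unpaired fit was run on simulated data without replicate structure, for Panc02 against control only. Neither the blocked fit nor the fits with libraries left out were simulated. Genes are given with all libraries where they passed with or without the replicate block or had one of the 3 highest mean levels of their family. Partner genes are given where they passed.

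The labels number the libraries of a group 1 to 3 and do not explain the numbers. Deviations from group means were correlated over genes, and same-number pairs gave r of 0.639 to 0.810 for number 1, 0.243 to 0.420 for number 2 and 0.380 to 0.511 for number 3. All exceed 0.1, the level set for taking libraries as paired, though different numbers reached 0.613, between a library numbered 2 and one numbered 3. Deviations from a group mean cancel out within the group. Where replicate 1 stands apart, replicates 2 and 3 therefore deviate together whatever their number. These correlations cannot show pairing for numbers 2 and 3, where it is assumed. A second fit with replicate number as a block (4 residual and 3.51 prior degrees of freedom) is given beside the results it changes. Alternatives were another pseudocount, no filter, constant prior variance, 3 other scalings, the 2 groups alone, no replicate 1 libraries and each library left out. Promoter windows came from RefSeq (GRCm38.p6) and exon overlaps from GENCODE on GRCm38. Python 3.11.15, numpy 2.4.6, pandas 2.3.3 and matplotlib 3.10.9 were also used.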

Additional observations from a re-analysis of the deposited data

How the results depend on the processing

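For guidance genes the count of calls was 0 in each comparison of the unpaired fit. For KPC exosomes it became 1 with the replicate block and 1 without the replicate 1 libraries. For Panc02 exosomes it became 4 in both of these fits, 1 with equal totals of nuclear genes, 2 with median-ratio scaling and 1 with the 2 groups alone. With a library left out it was 0 to 1, the call being Sema7a without KPC replicate 1. The other alternatives gave 0. Over all genes the KPC count of 34 became 174 with the block, 178 without the replicate 1 libraries, 6 with equal library totals and 0 with the 2 groups alone, and 0 to 34 with a library left out (0 without any control library). The Panc02 count of 105 became 440, 477 and 46 in the first 3 of these, and 23 to 126 with a library left out. It was 114 with equal totals of nuclear genes, 133 with median-ratio scaling and 78 with the 2 groups alone. Between the sources the count of 0 became 8 without the replicate 1 libraries and 0 to 1 with a library left out. The cause of these shifts was not tested.

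For the single guidance genes with a fold change, 15 of 1026 alternative values passed where the unpaired fit did not. No value could go the other way, since the unpaired fit called no guidance gene. The 15 values belong to Sema7a, Ephb2, Slit2 and Unc5b. With the replicate 1 libraries left out, adjusted p was 0.00744 and 0.00278 for Sema7a with KPC and Panc02 exosomes, and 0.0141 for Unc5b, 0.0266 for Ephb2 and 0.0378 for Slit2 with Panc02. Over its 18 alternatives Sema7a kept a log2 fold change of 0.96 to 1.53 for KPC and 1.26 to 1.78 for Panc02 exosomes, with adjusted p of 0.00744 to 0.590 and 0.00240 to 0.230. The Panc02 ranges were 0.97 to 1.61 for Unc5b (adjusted p 0.0111 to 0.533), 0.51 to 0.73 for Ephb2 (0.0266 to 0.497) and -0.59 to -0.44 for Slit2 (0.0328 to 0.311). In 66 of the 1026 values the sign changed, none of them past the threshold in either fit, and each was at most 0.41 log2 in size.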
